A study of Homo sapiens with 8 samples.

Results

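The genes described here encode m6A reader proteins, the proteins that bind RNA carrying N6-methyladenosine (m6A). A list of 10 such genes was looked up by symbol in a deposited result table of 9339 genes, and 8 had a value: YTHDF1, YTHDF2, YTHDF3, YTHDC1, YTHDC2, IGF2BP2, HNRNPA2B1 and HNRNPC. IGF2BP1 and IGF2BP3 were not analysed here. The list was drawn from the known function of the proteins and used no measured value, although it was chosen with earlier results of these data known.

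The study grew THP-1, a human acute monocytic leukaemia line, either as control or with ALKBH5, an enzyme that removes m6A, knocked down (labelled A5-KD). Each condition gave ribosome footprints, the stretches of mRNA that a ribosome shields from micrococcal nuclease, and input RNA taken from the same kind of lysate, with 2 libraries in each of the 4 groups (A5-KD ribo, control ribo, A5-KD input and control input). The control input libraries carry the genotype label "input", so only their titles place them with the control. The sources used here do not say how the knockdown was made or whether replicate libraries derive from different cultures. The errors below are those of the authors' model fitted to these libraries. They are not a direct measure of the spread between replicates, and they cover no variation beyond these libraries.

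m6A is the most common internal modification of mRNA. A complex around METTL3 and METTL14 writes it, ALKBH5 and FTO remove it, and readers carry out much of its effect. YTHDF and YTHDC proteins hold the methylated base in an aromatic pocket of the YTH domain. IGF2BP proteins bind through KH domains, and HNRNPC and HNRNPA2B1 can gain access to RNA whose folding m6A has loosened. In myeloid leukaemia YTHDF2, YTHDC1 and IGF2BP2 are each known to sustain leukaemic cells.

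The question asked of these genes was whether the readers themselves were translated differently after ALKBH5 knockdown. The readout was the log2 fold change of translational efficiency, which is footprint abundance relative to input RNA, compared between knockdown and control by the authors with riborex and its DESeq2 engine. The source does not say which condition is the reference, so every sign is the deposited sign and cannot be read as lower or higher in the knockdown. Values per library and library depth were not analysed here, so each gene has 1 fold change with its standard error (SE) from the authors' model. The mean signal given with each gene is the authors' normalized average over all 8 libraries, footprints and input together. It is not divided by transcript length, so it tells how much data a gene has and not which reader is more abundant.

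No reader changed detectably. In the table deposited by the authors, none of the 8 readers (0 of 8) passed an adjusted p of 0.05 and 0 passed an unadjusted p of 0.05. Over all genes the background was low too: 1.54% of the 648 genes with an adjusted p were called, and 0.707% of the 9339 genes had an unadjusted p under 0.05. The fold changes of the readers ran from -0.44 for YTHDF1 to 0.18 for YTHDF3 in the authors' deposited table, with 5 negative and 3 positive. Their median of -0.02 stood beside a median of -0.02 over all 9339 genes, of which 51.9% were negative. Each of the 8 fold changes was smaller than its own SE, as was the case for 97.2% of all genes. The Wald statistic (fold change over SE) had a robust spread of 0.280 over all genes. Among the 200 genes nearest in mean signal it was 0.220 for YTHDF1 and 1.18 for HNRNPA2B1. At low signal the fold changes thus scattered much less than their SEs, so intervals and p-values there may be too wide. Why was not tested.

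**Figure D1:**
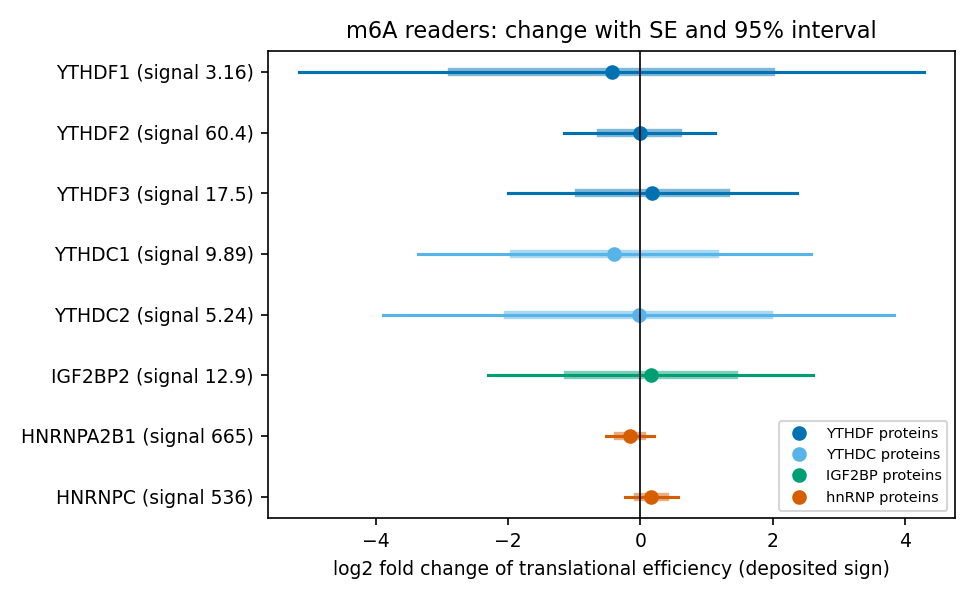
Log2 fold change of translational efficiency of the 8 readers (points), with 1 SE to either side (thick bars) and the 95% interval (thin lines), and with each gene's mean signal beside its name. All 8 intervals hold 0, and they are narrow only for HNRNPA2B1 and HNRNPC.

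The nuclear ribonucleoproteins were the readers measured well. HNRNPA2B1, which takes part in splicing and in the processing of primary microRNAs, stood at -0.16 ± 0.18 (log2 fold change and SE in the authors' deposited table, mean signal 665), with an unadjusted p of 0.383 and an adjusted p of 0.999 (DESeq2). Its 95% interval ran from -0.52 to 0.20, that is, from a ratio of 0.697 to 1.15 between the conditions. HNRNPC, which packages nascent transcripts and binds runs of uridine, stood at 0.16 ± 0.21 on the same scale at a mean signal of 536 in the authors' deposited table, with an unadjusted p of 0.426 and again an adjusted p of 0.999 (DESeq2). Its interval ran from -0.24 to 0.57, with a ratio of 1.12 at the estimate. For both genes a change of 1 log2 unit in either direction lies outside the interval. Intervals that lie wholly between -1 and 1 were found for 7.05% of all genes.

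These ribonucleoproteins had opposite signs and nearly the same size of fold change. HNRNPA2B1 lay below HNRNPC by a log2 difference of -0.32 ± 0.28, with a 95% interval from -0.86 to 0.22, taking the errors of both genes as independent. The difference exceeded its SE, but its 95% interval holds 0. The same comparison over all 28 pairs of readers gave 0 pairs whose interval excluded 0.

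Of the cytoplasmic YTHDF proteins, YTHDF2 had the most data. YTHDF2 brings methylated mRNA to the CCR4-NOT deadenylase and so to decay, and had a log2 fold change of -0.01 ± 0.58 at a mean signal of 60.4 in the authors' deposited table (unadjusted p = 0.981, DESeq2). Its 95% interval ran from -1.15 to 1.12, so that a change of up to about 2.18-fold upward or to a ratio of 0.451 is not excluded by the interval. YTHDF3, a related protein that acts together with the other YTHDF proteins, had 0.18 ± 1.11 at a mean signal of 17.5 in the authors' deposited table (unadjusted p = 0.872, DESeq2). YTHDF1, described as promoting translation of methylated mRNA, had the least data of all readers, with a mean signal of 3.16 and -0.44 ± 2.41 on the log2 scale in the authors' deposited table (unadjusted p = 0.856, DESeq2). For YTHDF1 a change would have had to exceed 26.4-fold to reach an unadjusted p of 0.05. The point estimate of -0.44 is thus the most negative among the readers and also the least certain.

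The YTHDC proteins and IGF2BP2 were likewise measured with wide errors. YTHDC1, the nuclear reader linked to splicing and export of methylated RNA, had a log2 fold change of -0.39 ± 1.52 at a mean signal of 9.89 in the authors' deposited table (unadjusted p = 0.796, DESeq2). YTHDC2, a helicase best known from germ cells entering meiosis, had -0.03 ± 1.97 at a mean signal of 5.24 in the authors' deposited table (unadjusted p = 0.988, DESeq2). IGF2BP2, which stabilises bound mRNA, had 0.16 ± 1.26 at a mean signal of 12.9 in the authors' deposited table (unadjusted p = 0.902, DESeq2). The change needed to reach an unadjusted p of 0.05 was 7.87-fold for YTHDC1, 14.6-fold for YTHDC2 and 5.51-fold for IGF2BP2, against 1.28-fold for HNRNPA2B1 and 1.32-fold for HNRNPC. With the deposited SEs a doubling could not have been told from 0 for any YTH protein or for IGF2BP2. Their intervals, 6 of the 8, hold both -1 and 1.

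The spread of the errors followed signal closely. The SE times the square root of the mean signal lay between 4.28 and 4.78 for the 8 readers, although their signals span 3.16 to 665, and the quartiles of the same product over all genes were 4.44 and 4.89. No reader therefore had an unusually large SE for its signal. How much each reader varied between libraries was not analysed here. Among the 200 genes nearest in mean signal, 12.5% had a smaller SE than YTHDF2, 24.0% than HNRNPA2B1, 27.0% than HNRNPC and 67.0% than YTHDC1. Genes under a mean signal of 155.3 carry no adjusted p, and this was so for 6 of the 8 readers and for 93.1% of all genes.

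**Figure D2:**
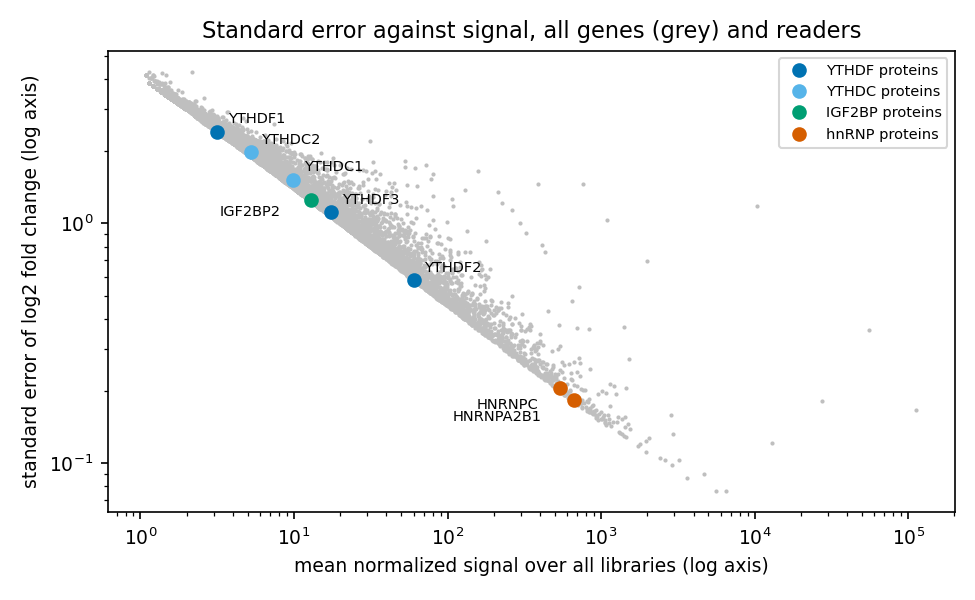
Standard error of the log2 fold change against mean signal, both on log axes, for all genes (grey points) and the 8 readers (coloured by family). The readers lie along the same falling band as the other genes, from YTHDF1 at a signal of 3.16 and an SE of 2.41 to HNRNPA2B1 at 665 and 0.18.

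Because the fold changes of well-measured genes leaned to the negative side, each reader was also set beside the 200 genes nearest to it in mean signal. Of the genes near HNRNPA2B1 73.5% were negative, with a median of -0.17 and quartiles of -0.30 and 0.01, so its own -0.16 lay in the middle, with 51.5% of them lower. Relative to that median its sign turned, to 0.0074. HNRNPC stood at the upper side of its neighbours: 91.5% had a lower fold change, and their median was -0.15. Relative to that median HNRNPC was higher by 0.31, and the Wald test of this difference gave an unadjusted p of 0.126 and an adjusted p of 1.0, with 0.471% of all genes under 0.05 in the same test. HNRNPC, YTHDF1 and YTHDC1 were the 3 of 8 readers outside the quartiles of their neighbours. Quartiles leave about as many genes outside as between them, so this count is no excess. YTHDC1 at -0.39 had 14.5% of its neighbours below it and YTHDF1 at -0.44 had 24.0%. The remaining readers lay between the quartiles, with 46.5% of the neighbours lower for YTHDF2 (whose sign turned, to 0.0048, when the median of all genes was subtracted), 43.5% for YTHDC2, 61.0% for IGF2BP2 and 67.5% for YTHDF3.

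**Figure D3:**
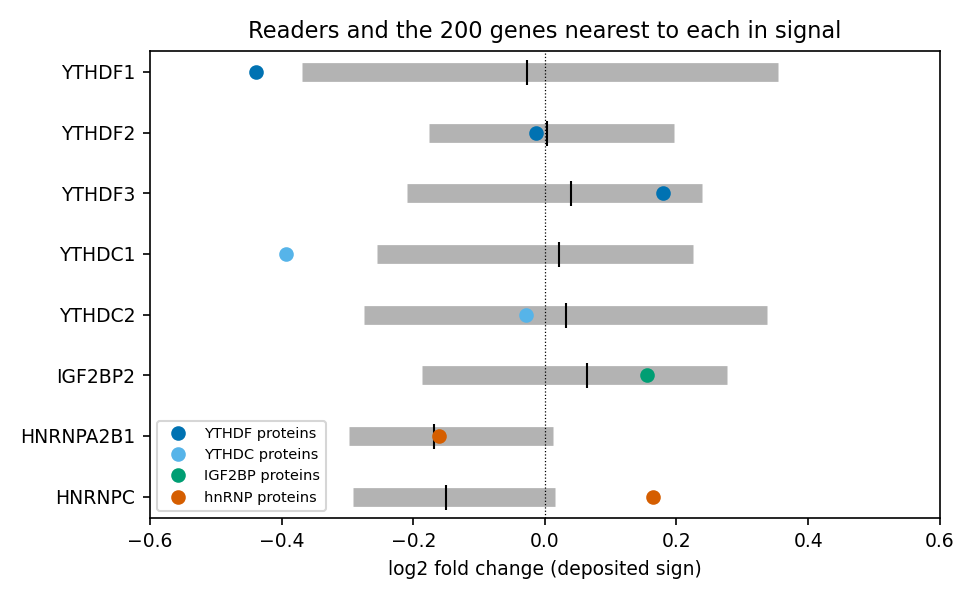
Log2 fold change of each reader (coloured point) with the median (black tick) and quartiles (grey bar) of the 200 genes nearest to it in mean signal. HNRNPA2B1 lies close to the median of its neighbours, while HNRNPC, YTHDF1 and YTHDC1 lie outside the grey bars.

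**Figure D4:**
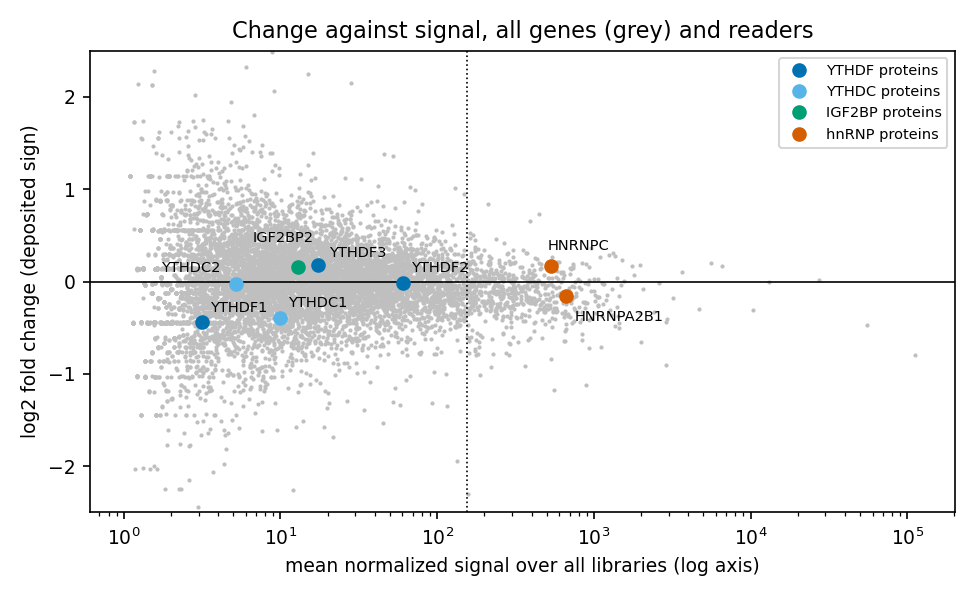
Log2 fold change against mean signal (log axis) for all genes (grey) and the 8 readers, with a dotted line at the signal of 155.3 above which an adjusted p was given. A total of 19 genes lie outside the drawn range, and HNRNPA2B1 and HNRNPC are the readers to the right of the line.

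Dividing the statistics by their spread over all genes, 0.280, was the alternative, of those tried, that called a reader. HNRNPA2B1 then had an adjusted p of 0.049, while HNRNPC had 0.093. This setting called 3.82% of all genes and put 11.0% of them, both hnRNP readers included, under an unadjusted p of 0.05, and genes with much signal gained most from it, since the spread was 0.807 among the 648 genes with an adjusted p. With the spread taken among the 200 genes of like signal instead, 1.18 near HNRNPA2B1, the adjusted p of HNRNPA2B1 was 0.948. HNRNPA2B1 is therefore not shown to have changed.

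The first transcribed bases of an mRNA bear on how it is translated: mRNAs of ribosomal proteins begin with a C followed by further pyrimidines, a feature called the 5′ terminal oligopyrimidine tract. Genes named RPL or RPS that begin in this way were 97.7% negative (44 genes). For comparison, 66.7% of all genes whose signal reached 100 were negative. The lean of genes named RPL or RPS without such a start was not analysed here. Whether the lean goes with the start, with the gene family or with high signal was therefore not tested. The annotated starts of 7 readers are shown only to see which share the letter pattern. Each window holds 10 bases before the annotated start and the first 15 transcribed bases, 5′ to 3′, from the RefSeq promoter table of GRCh38.p14, and capitals mark an unbroken run of C or T that begins at the start itself.
YTHDF1: cgccgctgctgtcgccgccgccgcc
YTHDF2 start 1: cagagctagtCTTTCCaggtgttag
YTHDF2 start 2: ctcttgggctagagcgtcgccgagt
YTHDC1: agcgcagggcatttcgggagcggga
YTHDC2: ttacgcccgcgctcctcgcctggcc
IGF2BP2 start 1: ggcggaggaggaggagagacgaggg
IGF2BP2 start 2: gaaattagctacttgtactgcaggc
HNRNPA2B1: ctctagcggcagtagcagcagcgcc
HNRNPC: cctcggcggcagaggagactcgggg
One of these 7 genes, YTHDF2, had a start with C and at least 4 further pyrimidines, at its first annotated start, and its second start begins with A. The YTHDF2 window at start 1 is chr1:28736614-28736638 on the plus strand. The windows of HNRNPA2B1 (chr7:26200732-26200756) and HNRNPC (chr14:21269428-21269452), both on the minus strand, begin transcription with A. Such a start was found at 4.07% of all 35116 annotated starts and in 8.04% of the 7613 genes with both a fold change and a start. Of the 63 such genes named RPL or RPS, 69.8% had it. The genes with such a start had a median log2 fold change of -0.07 and were 60.3% negative. With those named RPL or RPS left out, the median was -0.05 and 57.4% were negative. Over all genes the median was -0.02, with 51.9% negative, and YTHDF2 stood at -0.01. At a mean signal of at least 100, genes with such a start had a median of -0.19 and were 75.6% negative. All 972 genes of that signal, which YTHDF2 does not reach, had a median of -0.11 and were 66.7% negative. Genes named RPL or RPS were not left out at that signal. Whether the other genes with such a start lean further than the background there was not tested. Annotated starts can lie some bases from the start used in THP-1, and which of the 2 YTHDF2 starts is used was not analysed here.

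The positions of the genes, as spans of the whole gene in GRCh38.p14, bear on how reads could be assigned. HNRNPC (chromosome 14, 21209147 to 21269442) has 9 pseudogenes named for it and 4 protein-coding relatives (the HNRNPCL genes), which were not analysed here. Reads shared with these copies would leave its value uncertain. HNRNPA2B1 (chromosome 7, 26189927 to 26200746) has 0 pseudogenes named for it and overlaps 0 other annotated genes. YTHDF2 (chromosome 1, 28736624 to 28769775), YTHDF1 (chromosome 20, 63195429 to 63216131) and YTHDF3 (chromosome 8, 63168553 to 63212788) have 1 named pseudogene each. YTHDC1 (chromosome 4, 68310387 to 68350090) and YTHDC2 (chromosome 5, 113513694 to 113595284) have 0. IGF2BP2 (chromosome 3, 185643130 to 185825042) has 3 named pseudogenes, and its span overlaps 3 other genes, the antisense transcript IGF2BP2-AS1, an uncharacterised lncRNA and the microRNA gene MIR548AQ. The sources used here do not say whether counting used strand, so it is unknown whether reads of IGF2BP2 and IGF2BP2-AS1 were kept apart.

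The genes around the readers mostly had too little signal for a call. None of the writers, erasers or other m6A-binding proteins described next has an adjusted p (0 genes), so none could be called, and none had an unadjusted p under 0.05, beside 0.707% of all genes. Of 15 listed m6A writers and erasers 14 had a value, 5 negative and 9 positive, with a median of 0.12. ALKBH5, the gene knocked down, stood at 1.94 ± 2.30 and the methyltransferase METTL3 at 0.18 ± 1.44 on the log2 scale in the authors' deposited table. The value of ALKBH5 is a change in translational efficiency and does not measure the knockdown. Of 13 other proteins reported to bind m6A RNA, all had a value, 6 negative and 7 positive, with a median of 0.06. The splicing regulator RBMX had -0.09 ± 0.38 and the initiation factor subunit EIF3H -0.24 ± 0.38 in the authors' deposited table.

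Proteins through which readers act had list medians a little below 0. Of 27 decay and translation effectors that readers recruit, such as the CCR4-NOT deadenylase and the poly(A)-binding proteins, 18 lay below and 9 above 0, and the median was -0.11. PABPC1, which coats the poly(A) tail, had -0.11 ± 0.22 and the deadenylase CNOT7 -0.04 ± 0.65 in the authors' deposited table. Of 11 nuclear partners of YTHDC1 and HNRNPA2B1, 8 lay below and 3 above 0, and the median was -0.13. The splicing factors SRSF3, which YTHDC1 recruits, and SRSF7 stood at -0.25 ± 0.23 and -0.12 ± 0.31 in the authors' deposited table. Among 9 partners of IGF2BP proteins 5 lay below and 4 above 0, the median was -0.04, and their best-measured members were YBX1, an mRNA-packaging protein, at -0.28 ± 0.23 and PABPC1, in the authors' deposited table. An adjusted p was given for 1 of the effectors, 2 of the nuclear partners and 3 of the IGF2BP partners, and none of these was called, beside 1.54% of all genes with one. In these 3 lists no member had an unadjusted p under 0.05, beside 0.707% of all genes.

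The other hnRNP proteins give the nearest comparison for HNRNPA2B1 and HNRNPC. All 24 had a value, 14 negative and 10 positive, with a median of -0.06 and a range from -1.02 to 0.49. HNRNPK, a binder of C-rich RNA, had 0.05 ± 0.19 at a mean signal of 575, and HNRNPH1, a binder of G-rich RNA, had -0.29 ± 0.23 at 454, in the authors' deposited table. Of the 5 with an adjusted p, HNRNPK alone was positive, by less than its SE, and the others were negative. HNRNPC, at 0.16, lay above all 5. Of these 5, 0 were called, beside 1.54% of all genes with an adjusted p. Of the 24, 0 had an unadjusted p under 0.05, beside 0.707% of all genes.

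Of 28 mRNAs described as targets of m6A regulators in leukaemia 24 had a value, 7 negative and 17 positive, with a median of 0.20 against -0.02 over all genes. TK1, a thymidine kinase, had 0.20 ± 0.43 and MCM4, a subunit of the replicative helicase that YTHDC1 is reported to protect in leukaemia, 0.24 ± 0.51 in the authors' deposited table. None of the 24 passed an unadjusted p of 0.05, and none reached the signal needed for an adjusted p. This list and the others around the readers were written with an earlier account of these data known, and their counts and medians are a description.

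**Figure D5:**
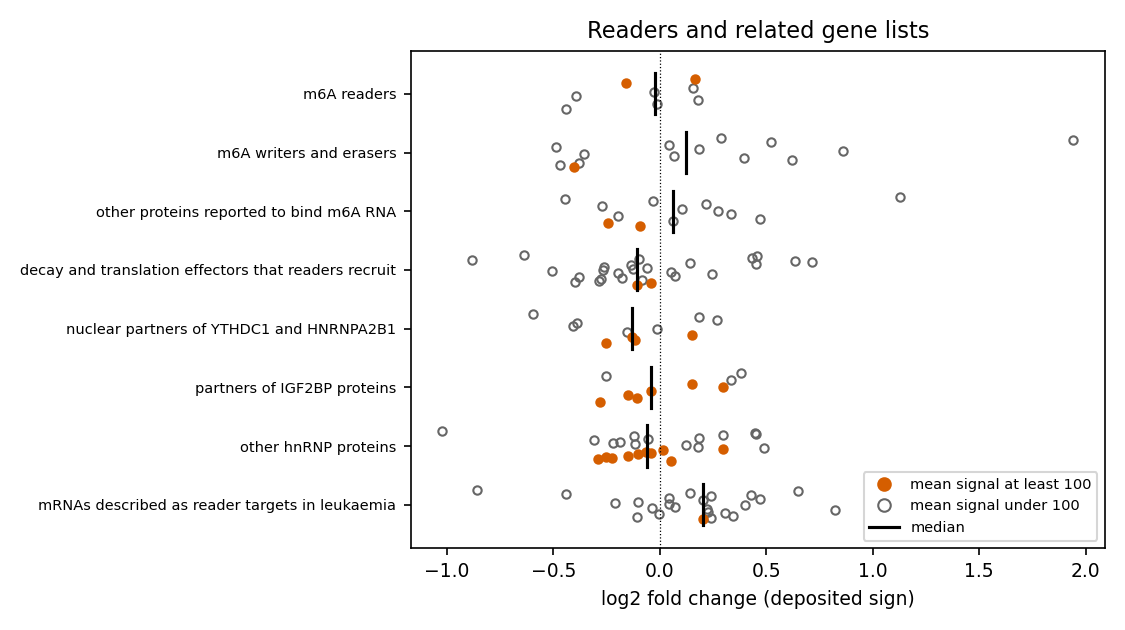
Log2 fold change of the 8 readers and of the members of 7 related lists (1 point per gene, filled where the mean signal is at least 100), with the median of each list as a black bar. Medians lie between -0.13 and 0.20, and that of the readers at -0.02.

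The label of the cells was checked against markers. Of 16 monocyte and myeloid leukaemia markers 14 had a value, against 1 of the 8 markers of lymphoid cells, 0 of the 7 of erythroid cells and megakaryocytes and 1 of the 7 of epithelial cells and fibroblasts. Of the 6 myeloid markers with an adjusted p, 1 was called, beside 1.54% of all genes with one. This was FCGR2A, an Fc receptor of myeloid cells, at -0.80 ± 0.17 in the authors' deposited table (adjusted p = 4.0e-04, DESeq2). Its mean signal of 112772 was far above the 2942 of LYZ. Whether all reads assigned to FCGR2A come from its mRNA was not tested. LYZ, the lysozyme gene, stood at -0.41 ± 0.13 in the same table deposited by the authors (unadjusted p = 0.0019, adjusted p = 0.084, DESeq2). The mean signal reached 15.2 for the lymphoid marker (NKG7) and 4.33 for the epithelial one (KRT8), and these 4 markers were named after their values were seen. Signal alone did not set every myeloid marker apart, since the lowest of the 14 had a mean signal of 4.55.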

How the data were processed

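The members and lists were chosen with earlier results of these data known. The deposited table holds 1 comparison (run by the authors with riborex and its DESeq2 engine, going by the table name in the labels) and 0 columns of values per library; CASAVA, HISAT2 2.1.0, kallisto and hg38 are named in the submitters' processing notes without a role. The mean signal is the deposited baseMean column. The log2 fold change, its SE, the Wald statistic (a score) and both the raw and the adjusted p-value come from the authors, per the file headers. Recomputing them gave the same statistic (fold change over SE) and the same Benjamini-Hochberg values over 648 genes, those with a mean signal of at least 155.3. Depth per library was not analysed here, so no interval from read counts was made.

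From the table, 95% intervals (normal), pair differences and the values of the 200 genes nearest in log2 mean signal were computed with Python 3.11.15, numpy 2.4.6, pandas 2.3.3 and scipy 1.17.1. Alternatives were adjustment over all genes, centring, rescaling of the statistic by its scaled median absolute deviation, and signal minimums of 10 and 100. For a check, they were tested on simulated data whose fold changes scattered by the deposited SEs. The real scatter of most genes was narrower (spread of the statistic 0.280 over all genes), so this check does not vouch for the rescaling. Named genes are every member, ALKBH5 and METTL3, and the 2 members of highest signal of each other list, and 4 cell type markers were named after their values were seen. Gene names were matched to RefSeq (GRCh38.p14) by symbol or older name, which found all 8 members; 14 names turned into dates stayed in the tests unnamed.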

Additional observations from a re-analysis of the deposited data

How the results depend on the processing

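Under the alternatives tried, 44 of 47 fold changes of single readers kept their sign and their side of the threshold, with adjusted p from 0.049 to 1.0. Only the centrings alter a fold change, so the sign could not turn under the other alternatives. The 6 readers without a deposited adjusted p were counted as not called. The entries outside the 44 were YTHDF2, which was 0.0048 after centring on all genes, HNRNPA2B1, which was 0.0074 after centring on 200 genes of like signal, and HNRNPA2B1 with the statistic rescaled over all genes (adjusted p 0.049). The number of readers called was 0 in all settings but that last rescaling, where it was 1, and the number at an unadjusted p under 0.05 was 2 there, where 11.0% of all genes passed, and 0 otherwise. The median of the readers was -0.02 as deposited, 0.16 over the 5 with a mean signal of at least 10, 0.0016 over the 2 with at least 100, -0.02 without the hnRNP proteins and -0.02 as a weighted mean. Leaving out single libraries was not run, and no paired analysis was possible because the columns carry no values per library. Low signal limits the YTH proteins and IGF2BP2, for which smaller changes were not detectable with the deposited SEs.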
